A study of Bos taurus with 20 samples.

Results

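Skeletal muscle genes were followed through the horn bud skin of cattle to describe how the signal of striated muscle varied between biopsies. The 44 genes code for the contractile machinery of striated fibres and for the enzymes and oxygen store that supply it. A gene's probes were those named by its symbol, or by a description that names the gene, and the brightest of them stood for it. Of the 44 genes, 41 were matched by 48 of the 21475 probes on the array: 10 of 12 fast fibre genes, 9 of 10 slow fibre genes and 22 of 22 genes that both kinds of fibre use. No probe was matched for MYH2, TNNI1 or TNNI2, which were not analysed here. Where the reference table held a name for the brightest probe, it was the same gene in 34 of 34 cases. The names of DES, MYBPC2, MYL1, MYL3, MYLPF, NEB and RYR1 rest on the array's own symbols or descriptions alone, and the MYL1 and MYL3 probes carry the same accession with different descriptions.

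Skeletal muscle fibres contract when thick filaments of myosin pull on thin filaments of actin. Troponin and tropomyosin on the thin filament make this depend on calcium, which is released from and pumped back into an internal store. Slow fibres and fast fibres build the same machine from different gene copies, so that myosin light chains and troponins come in slow and fast pairs. Striated muscle is not a layer of skin itself: thin sheets of it lie beneath the skin of the head, while the muscle of hair follicles and vessels is smooth.

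The samples were total RNA of biopsies holding epidermis and dermis with its connective tissue, taken from the site where horns form in 4 polled animals (born without horns), 4 scurred animals (with loose, rudimentary horns) and 3 horned animals. Polled 2, scurred 1, 3 and 4 and horned 1 and 3 were males, and polled 1, 3 and 4, scurred 2 and horned 2 were females. Skull skin away from the horn site was also taken from polled 3 and scurred 2, which makes 13 biopsies of 11 animals, hybridised to 20 Agilent arrays with 2 colours on 5 chips. Age and breed are not given in the sources used here. Horned 2 served on chips 2 and 4, and the polled and the scurred animal of each chip were of opposite sex. Of the skin markers, keratins KRT5, KRT14 and KRT10 and the collagens COL1A1, COL1A2 and COL3A1 were well above background in 13 of 13 biopsies. Between 62.24% and 73.75% of spots per array and colour were well above background. None of the 1640 spots of the members (41 probes, each spot on each of 20 arrays) was saturated or left out by a flag. The number of animals limits the precision, and in bulk RNA fewer fibres in a biopsy and less RNA per fibre cannot be told apart.

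Levels are log2 intensities of a gene's probe after normalization, and are compared between biopsies only within a gene, since probes differ in brightness. Each probe is a 60-base strand, and 4 are printed to show what the arrays read: the slow and the fast troponin T, the fast troponin C and the muscle creatine kinase. Capitals mark the 8 bases that make up the longest run shared by the troponin T probes.
TNNT1: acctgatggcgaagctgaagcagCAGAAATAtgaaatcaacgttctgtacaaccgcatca
TNNT3: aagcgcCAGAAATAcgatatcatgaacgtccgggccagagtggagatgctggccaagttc
TNNC2: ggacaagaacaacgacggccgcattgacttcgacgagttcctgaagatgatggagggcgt
CKM: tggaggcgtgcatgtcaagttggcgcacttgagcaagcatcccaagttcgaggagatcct
In the other 4 slow and fast pairs described here the longest shared run was 4 to 6 bases. Over all 820 pairs of member probes it was 13 bases, between MYL3 and TPM2, so no probe holds a long run of another member's probe. Probes were not compared with whole transcripts, so matches to other parts of a related gene were not tested. GC content was 45% in the TNNT1 probe, 53.3% in TNNT3 and 55% in both TNNC2 and CKM. No genome was used here, so positions are not given.

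The muscle genes differed more between biopsies than most of the genes on the array. Of the 40 members tested, 35 spanned over 3 log2 units between the highest and the lowest of the 11 horn-site biopsies, against 4.81% of all 15376 probes tested. The median span was 6.81 log2 units for the members and 1.0 for all probes. The spans of 28 members lay above the 99th percentile of all probes, which was 5.09. Testing required a probe to be well above background in 3 or more of the 11 animals. CASQ1, the calcium store protein of fast fibres, was the member that was not tested, being well above background in 0 of 13 biopsies.

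**Figure D1:**
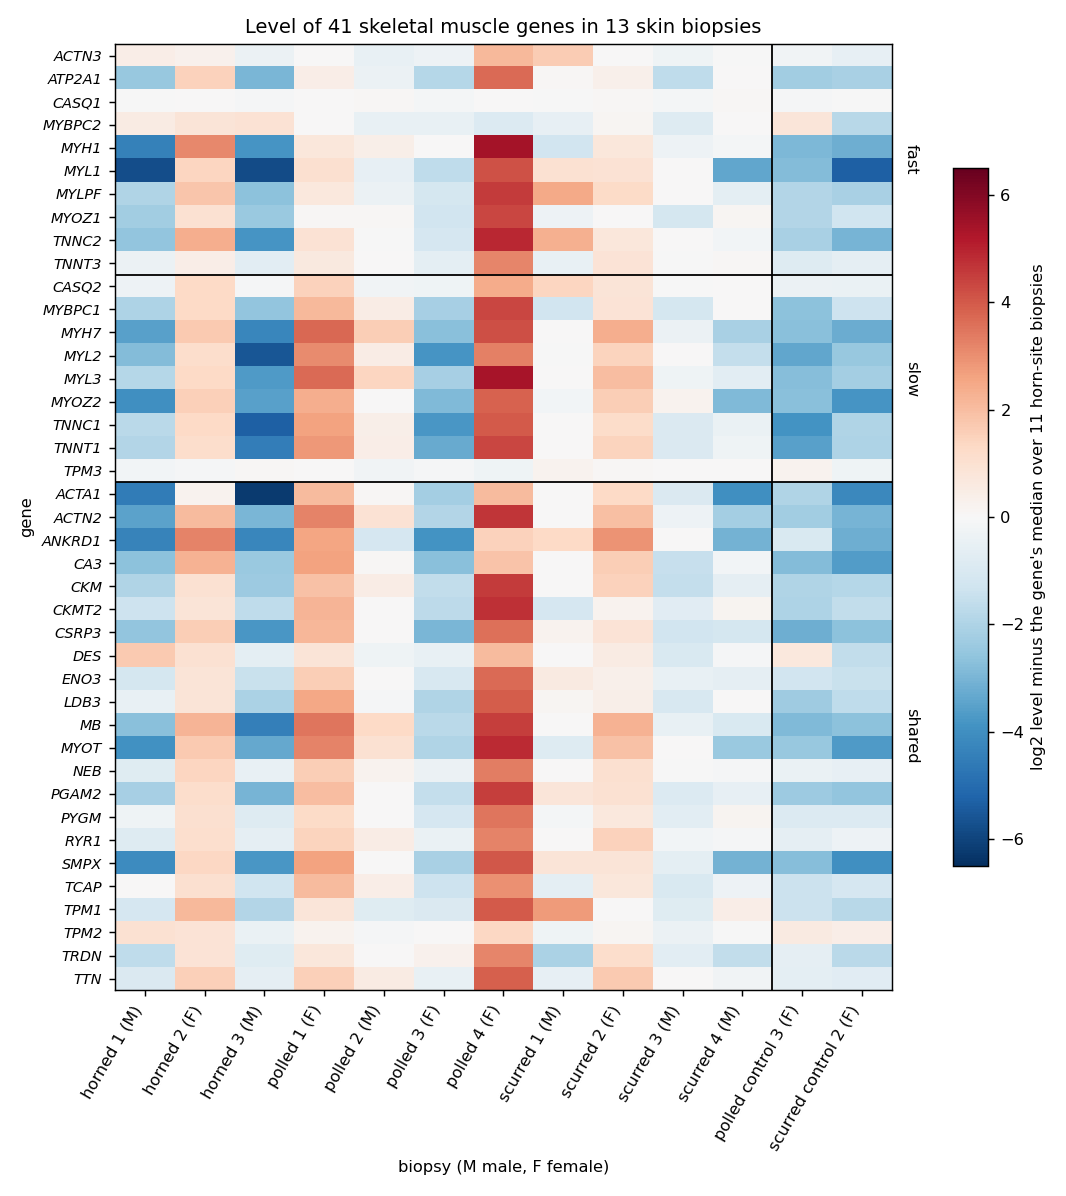
Colours show the log2 level of each of the 41 muscle genes (rows, by fibre kind) in each of the 13 biopsies (columns, with M for male and F for female) minus that gene's median over the 11 horn-site biopsies. Polled 4 is red in most rows and horned 1, horned 3, polled 3 and both control biopsies are blue in most rows, while TPM3, CASQ1 and MYBPC2 do not follow.

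Of all members, the myosin genes MYL1 and MYH1 of the thick filament had the widest spans. MYH1, a fast myosin heavy chain, had levels of 6.74, 14.24 and 7.30 in horned 1 to 3, 11.87, 11.49, 11.11 and 16.53 in polled 1 to 4, 9.88, 11.85, 10.76 and 10.99 in scurred 1 to 4, and 8.17 and 7.93 in the control skin of polled 3 and scurred 2. MYH7, the slow myosin heavy chain, stood at 9.88, 15.10 and 9.17 in horned 1 to 3, 17.12, 14.99, 10.69 and 17.58 in polled 1 to 4, 13.41, 15.75, 13.03 and 11.31 in scurred 1 to 4, and 10.67 and 10.18 in the control skin of polled 3 and scurred 2. Both genes were lowest in horned 1, horned 3 and the control biopsies, with polled 3 beside them for MYH7 but not for MYH1. The span of MYH1 came to 883-fold between polled 4 and horned 1, and that of MYH7 to 341-fold between polled 4 and horned 3.

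The light chains of myosin repeated this order. MYL1, a fast light chain, read 7.33, 14.49 and 7.31 in horned 1 to 3, 14.17, 12.58, 11.44 and 17.26 in polled 1 to 4, 14.10, 14.03, 13.11 and 9.74 in scurred 1 to 4, and 10.27 and 7.82 in the control skin of polled 3 and scurred 2. The probe described as MYL3, its slow partner, gave 9.85, 12.98 and 8.03 in horned 1 to 3, 15.39, 13.11, 9.57 and 17.08 in polled 1 to 4, 11.71, 13.71, 11.41 and 11.01 in scurred 1 to 4, and 8.94 and 9.49 in the control skin of polled 3 and scurred 2. The span of MYL1, 990-fold between polled 4 and horned 3, set it apart from MYL3 at 530-fold. For the regulatory light chains, fast MYLPF had 8.06, 11.84 and 7.36 in horned 1 to 3, 10.72, 9.62, 8.90 and 14.59 in polled 1 to 4, 12.49, 11.28, 10.03 and 9.38 in scurred 1 to 4, and 8.12 and 7.92 in the control skin of polled 3 and scurred 2. Slow MYL2 came to 11.75, 15.71 and 9.01 in horned 1 to 3, 17.68, 15.07, 10.74 and 17.88 in polled 1 to 4, 14.54, 16.03, 14.59 and 13.04 in scurred 1 to 4, and 11.22 and 12.11 in the control skin of polled 3 and scurred 2. Horned 1 and horned 3 were low for all 4 light chains, and polled 3 was the second lowest of the 11 horn-site biopsies for MYL2 and MYL3. Levels of the 3 horn types overlapped in each of these genes.

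Troponin genes of the thin filament, which carry the calcium switch, gave the same picture. TNNC2, the fast troponin C, was at 8.86, 13.76 and 7.58 in horned 1 to 3, 12.36, 11.40, 10.33 and 16.32 in polled 1 to 4, 13.75, 12.17, 11.42 and 11.26 in scurred 1 to 4, and 9.33 and 8.39 in the control skin of polled 3 and scurred 2. TNNC1, the slow troponin C, reached 12.02, 15.04 and 8.48 in horned 1 to 3, 16.40, 14.16, 9.98 and 17.76 in polled 1 to 4, 13.77, 14.95, 12.84 and 13.33 in scurred 1 to 4, and 9.89 and 11.82 in the control skin of polled 3 and scurred 2. Polled 4 was the highest biopsy in both, by 427-fold and 619-fold over horned 3. Slow TNNT1 measured 9.64, 12.69 and 7.07 in horned 1 to 3, 14.38, 12.00, 8.29 and 15.90 in polled 1 to 4, 11.56, 13.03, 10.61 and 11.30 in scurred 1 to 4, and 8.06 and 9.56 in the control skin of polled 3 and scurred 2. Fast TNNT3 was dim throughout, at 6.68, 7.52 and 6.40 in horned 1 to 3, 7.73, 7.08, 6.42 and 10.27 in polled 1 to 4, 6.62, 7.98, 7.04 and 7.18 in scurred 1 to 4, and 6.26 and 6.51 in the control skin of polled 3 and scurred 2, and was well above background in 7 of the 11 horn-site biopsies and in neither control biopsy. ACTA1, the actin of skeletal muscle, had levels of 10.70, 15.50 and 9.03 in horned 1 to 3, 17.31, 15.32, 13.07 and 17.30 in polled 1 to 4, 15.26, 16.58, 14.31 and 11.29 in scurred 1 to 4, and 13.30 and 11.07 in the control skin of polled 3 and scurred 2. ACTA1 differed from the troponins in that polled 1 stood level with polled 4, and its span was 309-fold.

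Genes of the Z-disc and of titin, which anchor the filaments, varied with them. TTN codes for titin, the giant spring of the sarcomere; its probe gave 5.97, 8.41 and 6.28 in horned 1 to 3, 8.46, 7.41, 6.41 and 10.78 in polled 1 to 4, 6.35, 8.59, 6.89 and 6.68 in scurred 1 to 4, and 6.25 and 6.17 in the control skin of polled 3 and scurred 2. TTN was well above background in 6 of the 11 horn-site biopsies, so its span down from polled 4, at least 22.2-fold, is a lower bound. TCAP, the cap of titin, read 10.88, 11.93 and 9.57 in horned 1 to 3, 12.95, 11.31, 9.52 and 13.84 in polled 1 to 4, 10.27, 11.62, 9.90 and 10.58 in scurred 1 to 4, and 9.47 and 9.78 in the control skin of polled 3 and scurred 2, a span of 4.32 log2 units between polled 4 and polled 3. MYOZ1, a Z-disc protein of fast fibres, had 8.92, 12.20 and 8.78 in horned 1 to 3, 11.25, 11.29, 9.92 and 15.52 in polled 1 to 4, 10.84, 11.19, 10.04 and 11.33 in scurred 1 to 4, and 9.26 and 9.90 in the control skin of polled 3 and scurred 2. ANKRD1, a stress-responsive partner of titin, was at 7.42, 15.00 and 7.52 in horned 1 to 3, 14.36, 10.70, 7.90 and 13.29 in polled 1 to 4, 13.07, 14.70, 11.78 and 8.72 in scurred 1 to 4, and 10.77 and 8.58 in the control skin of polled 3 and scurred 2. Unlike most members, ANKRD1 peaked in horned 2. The other Z-disc genes had spans from 2.58 (ACTN3, the fast fibre actinin) to at least 8.51 log2 units (MYOT), and ACTN2, MYOT, MYOZ2 and SMPX had no spot above background in at least 1 of the 11 horn-site biopsies.

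Calcium and energy genes completed the pattern. RYR1, the calcium release channel, stood at 6.26, 8.23 and 6.51 in horned 1 to 3, 8.57, 7.59, 6.69 and 10.35 in polled 1 to 4, 7.12, 8.59, 6.92 and 7.06 in scurred 1 to 4, and 6.54 and 6.79 in the control skin of polled 3 and scurred 2. TRDN, which links that channel to the store, had 8.90, 11.46 and 9.79 in horned 1 to 3, 11.28, 10.56, 10.85 and 13.74 in polled 1 to 4, 8.48, 11.70, 9.90 and 8.95 in scurred 1 to 4, and 9.98 and 8.81 in the control skin of polled 3 and scurred 2. In TRDN polled 3 lay above the median of the 11 horn-site biopsies, which was 10.56. CKM, the creatine kinase that buffers ATP, read 6.80, 9.75 and 6.40 in horned 1 to 3, 10.68, 9.26, 7.14 and 13.29 in polled 1 to 4, 8.76, 10.24, 7.22 and 8.19 in scurred 1 to 4, and 6.79 and 6.93 in the control skin of polled 3 and scurred 2. MB, myoglobin, the oxygen store, gave 10.27, 15.15 and 8.50 in horned 1 to 3, 16.47, 14.25, 11.23 and 17.46 in polled 1 to 4, 12.97, 15.23, 12.48 and 11.96 in scurred 1 to 4, and 10.08 and 10.30 in the control skin of polled 3 and scurred 2, a span of 498-fold. PYGM, the enzyme that breaks down glycogen in muscle, came to 7.83, 9.16 and 7.28 in horned 1 to 3, 9.35, 8.11, 7.03 and 11.58 in polled 1 to 4, 7.99, 8.80, 7.40 and 8.31 in scurred 1 to 4, and 7.20 and 7.20 in the control skin of polled 3 and scurred 2. Polled 4 was again the highest biopsy in RYR1, TRDN, CKM, MB and PYGM, and the lowest was horned 1, scurred 1, horned 3 (for CKM and MB) and polled 3 in turn. CKM had no spot above background in horned 3, so its span of at least 102-fold is a lower bound.

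MYBPC1, the slow myosin binding protein C, spanned at least 106-fold, and NEB, nebulin, the ruler of the thin filament, at least 13.7-fold. TPM1, a tropomyosin of striated and smooth muscle, spanned 59.4-fold. The calcium genes differed: ATP2A1, the calcium pump of fast fibres, spanned 98.6-fold, and CASQ2, the calcium store protein of slow and heart fibres, 6.70-fold. Among energy genes, PGAM2 and ENO3 of glycolysis spanned 182-fold and 34.7-fold, CKMT2, the mitochondrial creatine kinase, 85.8-fold, and CA3, a carbonic anhydrase of slow fibres and fat, 39.8-fold. All of these except CA3 were highest in polled 4, and CA3 was highest in polled 1. More than 1 probe was matched for 4 genes, and all 11 probes of CKMT2, MYH1, NEB and TTN were highest in polled 4.

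A few members stood apart from the rest. TPM3, a tropomyosin that many tissues express beside its slow fibre form, stayed within 0.54 log2 units, at 13.76, 13.87 and 14.04 in horned 1 to 3, 13.98, 13.73, 13.88 and 13.67 in polled 1 to 4, 14.21, 14.02, 13.98 and 13.96 in scurred 1 to 4, and 14.17 and 13.67 in the control skin of polled 3 and scurred 2. TPM2, a tropomyosin also made by smooth muscle, ranged over 1.78 log2 units, at 15.71, 15.60 and 14.30 in horned 1 to 3, 14.94, 14.61, 14.71 and 16.07 in polled 1 to 4, 14.41, 14.85, 14.35 and 14.66 in scurred 1 to 4, and 15.27 and 15.11 in the control skin of polled 3 and scurred 2. MYBPC2, the fast myosin binding protein C, had 10.86, 11.21 and 11.30 in horned 1 to 3, 10.35, 9.87, 9.86 and 9.46 in polled 1 to 4, 9.79, 10.49, 9.49 and 10.35 in scurred 1 to 4, and 11.12 and 8.53 in the control skin of polled 3 and scurred 2. Its lowest horn-site biopsy was polled 4 and its highest horned 3, the reverse of the median of the fast genes, while horned 2 was the second highest for both. DES, an intermediate filament of striated and smooth muscle, was high in horned 1 at 13.17, where most members were low, and TPM2 at 15.71 was high there as well. Horned 1 was among the 3 highest horn-site biopsies for 4 members, the other ones being ACTN3 at 8.55 and MYBPC2 at 10.86. The median of 11 smooth muscle genes, each relative to its own median, was also highest in horned 1, at 1.33; its part in those levels was not tested.

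Summed over genes, the biopsies fell into a broad order. Each member was set relative to its own median over the 11 horn-site biopsies, and the median of the 41 members was taken per biopsy. It was 3.85 in polled 4, 1.60 in polled 1, 1.27 in horned 2 and 0.91 in scurred 2. It was 0 in polled 2 and scurred 1, −0.21 in scurred 4 and −0.47 in scurred 3. At the low end it was −1.54 in polled 3, −1.93 in horned 1 and −2.41 in horned 3, and the control skin of scurred 2 and polled 3 stood at −1.84 and −1.98. Polled 4 was the highest of the 11 biopsies for 35 of 41 members, while horned 3 was the lowest for 21 and horned 1 for 10. Each horn type held both a biopsy above and a biopsy below 0.

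**Figure D2:**
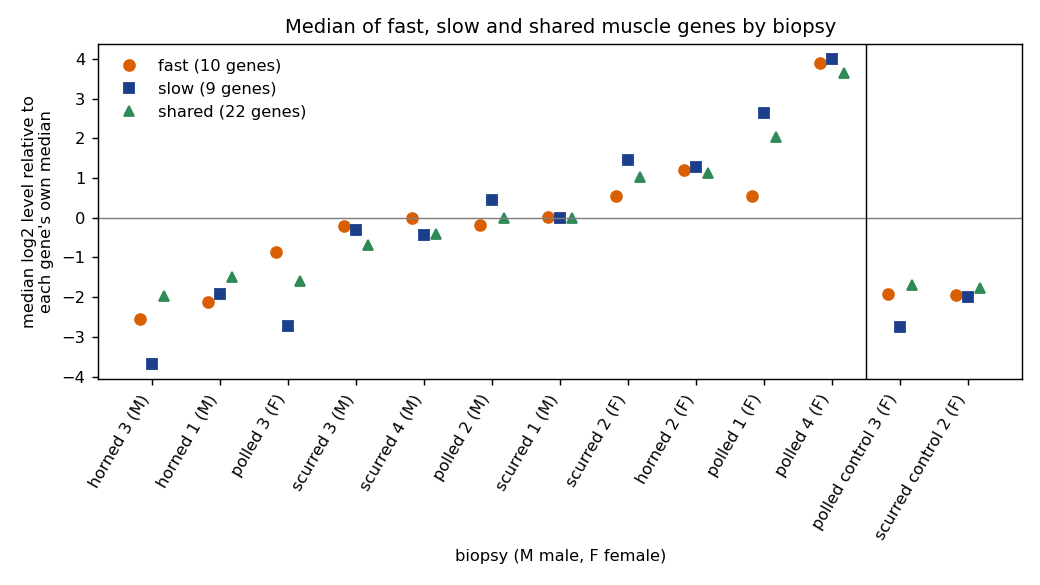
Points show the median log2 level of the 10 fast, 9 slow and 22 shared genes in each biopsy, each gene relative to its own median, with horn-site biopsies ordered by the median over all members and the 2 control biopsies at the right. Polled 4 is highest for all 3 classes at 3.91, 3.99 and 3.63, and the classes part most in polled 1, polled 3 and horned 3.

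The number of members detected was lowest in horned 3. In polled 1, polled 2, polled 4, horned 2, scurred 2 and scurred 3, 40 of 41 members were well above background. This number was 39 in scurred 1, 35 in polled 3, 34 in horned 1 and in both control biopsies, 32 in scurred 4 and 28 in horned 3. Over all probes the share detected kept between 64.6% and 71.1%, with horned 3 the lowest. In horned 3, 11 members had no spot above background.

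Repeat hybridisations gave the size of the technical error. Horned 2, measured on chips 2 and 4, differed between them by a median of 0.24 log2 units over the 41 members, and by 1.37 at most, for ACTA1 (16.18 and 14.81). Polled 3 on chips 3 and 5 differed by a median of 0.09 and by at most 0.28. Scurred 2 on chips 2 and 5 differed by a median of 0.18 and by at most 0.67, for PGAM2. These gaps are small beside the median span of 6.81 between biopsies.

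Slow and fast genes did not keep one ratio across biopsies. For 5 pairs of isoforms (MYH7 and MYH1, MYL3 and MYL1, MYL2 and MYLPF, TNNC1 and TNNC2, TNNT1 and TNNT3) the slow gene's level minus the fast gene's was computed, each relative to its own median. In polled 1 the slow gene led in 5 of 5 pairs, by a median of 2.41 log2 units and from 1.69 to 2.96. The slow gene also led in 5 of 5 pairs in polled 2 and scurred 2, by medians of 0.90 and 0.56. The leads ran from 0.41 to 1.93 in polled 2 and from 0.20 to 1.60 in scurred 2. The smallest of them are no larger than the largest gaps between repeat hybridisations. In polled 3 it trailed in 5 of 5 pairs, by a median of −2.70 with 4 pairs between −2.62 and −2.72 and MYL3 minus MYL1 at −0.47. In scurred 3 the slow gene led in 0 of 5 pairs, with a median of −0.30, but MYL2 minus MYLPF was 0 and MYH7 minus MYH1 was −0.02. Polled 4, with the most muscle signal, had a median of −0.91, with the slow gene ahead in 2 of 5 pairs. The pairs MYOZ2 and MYOZ1, MYBPC1 and MYBPC2, and CASQ2 and CASQ1 were computed but not used in the medians. In this order they gave −0.475, 5.23 and 2.42 in polled 4 and −0.10, 0.94 and −0.28 in polled 2. In scurred 2 they gave 1.61, 0.75 and 0.75, and in scurred 3 1.36, −0.26 and 0.10. The control skin of polled 3 had −1.45 and that of scurred 2 −0.05.

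**Figure D3:**
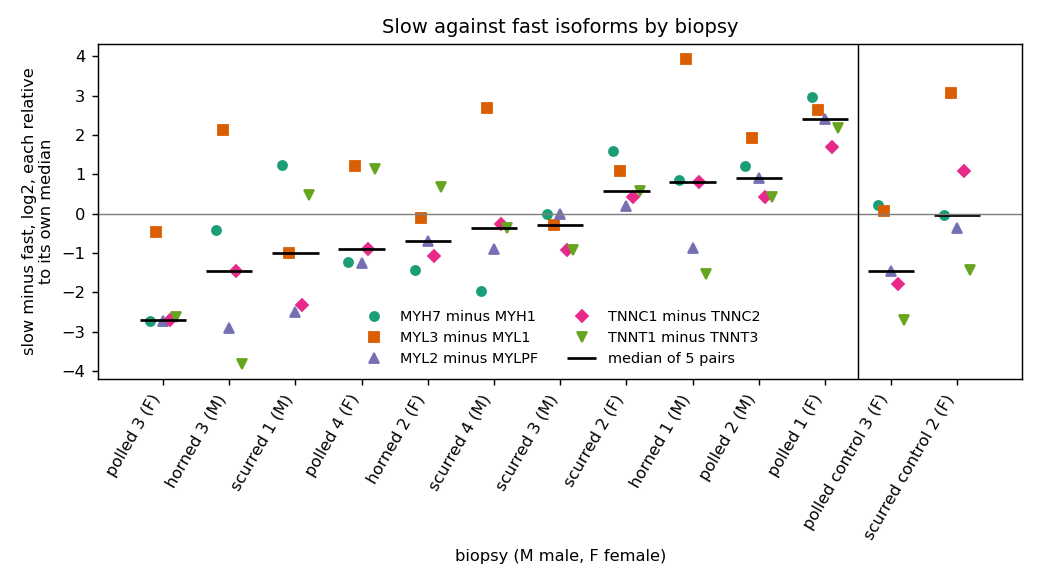
Points give, for each of 5 isoform pairs, the slow gene's log2 level minus the fast gene's in each biopsy, each gene relative to its own median over the 11 horn-site biopsies; black bars mark the median of the 5 pairs. All 5 pairs lie above 0 in polled 1 and below 0 in polled 3, while horned 1 and horned 3 scatter on both sides.

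The pairs disagreed most in the horned biopsies of low muscle signal and in scurred 4. In horned 3 they ran from −3.82 for TNNT1 and TNNT3 to 2.12 for MYL3 and MYL1, in horned 1 from −1.53 to 3.92 and in scurred 4 from −1.97 to 2.67. In polled 3, also low in muscle signal, 4 of the 5 kept together. TNNT3 had no spot above background in horned 3 and polled 3, so the fast level there is an upper limit. Without that pair the medians were 2.52 in polled 1, −2.71 in polled 3 and −0.93 in horned 3. Without the pair of MYL3 and MYL1, whose probes share an accession, they were 2.29, −2.71 and −2.17, and that of horned 1 went from 0.81 to −0.03. Class medians, which include the genes of these pairs and so are no separate evidence, also parted. In polled 1 the slow genes stood at 2.64 and the fast at 0.55, and in polled 3 at −2.72 and −0.87. In horned 3, where the pairs disagreed, they stood at −3.68 and −2.54.

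Whether muscle genes differ between polled and horned skin was asked with a fit over all probes that compared animals on the same chip, with terms for horn type and sex. In the polled minus horned comparison 35 of 40 members tested were higher, with a median log2 difference of 1.07 against 0.01 over all probes, yet none passed the test. By limma with Benjamini-Hochberg adjustment 0 of 40 members had an adjusted p under 0.05, beside 0.0065% of all 15376 probes, and 1 of 40 had an unadjusted p under 0.05, beside 9.36% of all probes. The animals differed widely: the median over the 41 members, polled minus horned of the same chip, was 3.29 on chip 1 (scanned on another day than the rest), −0.94 on chip 2, 0.78 on chip 3 and 1.94 on chip 4. For ACTA1 the 4 differences were 6.76, −0.85, 4.40 and 2.26, and the fitted one was 2.76 (SE 1.41, limma p 0.0901, adjusted p 0.573). MYL3 had 2.24 (SE 1.06, limma p 0.072, adjusted p 0.563).

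The member with the lowest p was lower, not higher, in polled skin. MYBPC2 had group means of 11.12 ± 0.23 (SD, n = 3) in horned, 9.88 ± 0.36 (SD, n = 4) in polled and 10.03 ± 0.47 (SD, n = 4) in scurred biopsies. Its 4 polled minus horned differences were −0.52, −1.38, −1.46 and −1.62, and the fitted one was −1.35 (SE 0.29, limma p 0.00216, adjusted p 0.426). MYBPC2 was the 1 member of 40 whose polled and horned levels did not overlap, beside 9.79% of all probes, so such a gap is common on these arrays.

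Scurred against horned skin gave a similar balance. In scurred minus horned, 35 of 40 members were higher and the median was 0.84, against 0.01 over all probes. Keratinocyte genes were also higher, in 7 of 7, and smooth muscle genes lower, in 11 of 11. By limma 0 of 40 had an adjusted p under 0.05 (0% of all probes), and 1 of 40 an unadjusted p under 0.05 (3.75% of all probes). The chip medians were 2.37, 0.01, 1.17 and −1.82, so chips 1 and 4 lay on opposite sides of 0. MYBPC2 was again lowest in p, at −1.0 (SE 0.28, limma p 0.00813, adjusted p 1), and again the 1 member without overlap, beside 4.72% of all probes. TPM2 followed with −0.67 (SE 0.32, limma adjusted p 1), and TNNC1 with 1.61 (SE 0.82, limma adjusted p 1).

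Between scurred and polled skin the members had no common direction once sex was in the fit. The polled and the scurred animal of each chip were of opposite sex, so within a chip sex and horn type cannot be told apart. Without the sex term 4 of 40 members were higher in scurred minus polled. With it 15 of 40 members were higher, 25 were lower, and the median was −0.20 against −0.01 over all probes. Of the shared genes 18 of 22 were lower (median −0.302), while 6 of 9 fast and 5 of 9 slow genes were higher (medians 0.175 and 0.063). By limma 0 of 40 had an adjusted p under 0.05 (0% of all probes) and 0 of 40 an unadjusted p under 0.05 (5.97% of all probes), and no member was without overlap (2.65% of all probes). TPM3 came closest at 0.31 (SE 0.13, limma p 0.0507, adjusted p 0.828), ahead of TRDN at −0.94 (SE 0.61, limma adjusted p 0.866) and ANKRD1 at 2.38 (SE 1.78, limma adjusted p 0.88). Without polled 4 the median turned to 0.11, with 26 of 40 members higher. The median also lay above 0 without scurred 2 or scurred 4 and without chip 2 or chip 4, and the number higher ran from 5 without scurred 1 to 34 without chip 4.

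**Figure D4:**
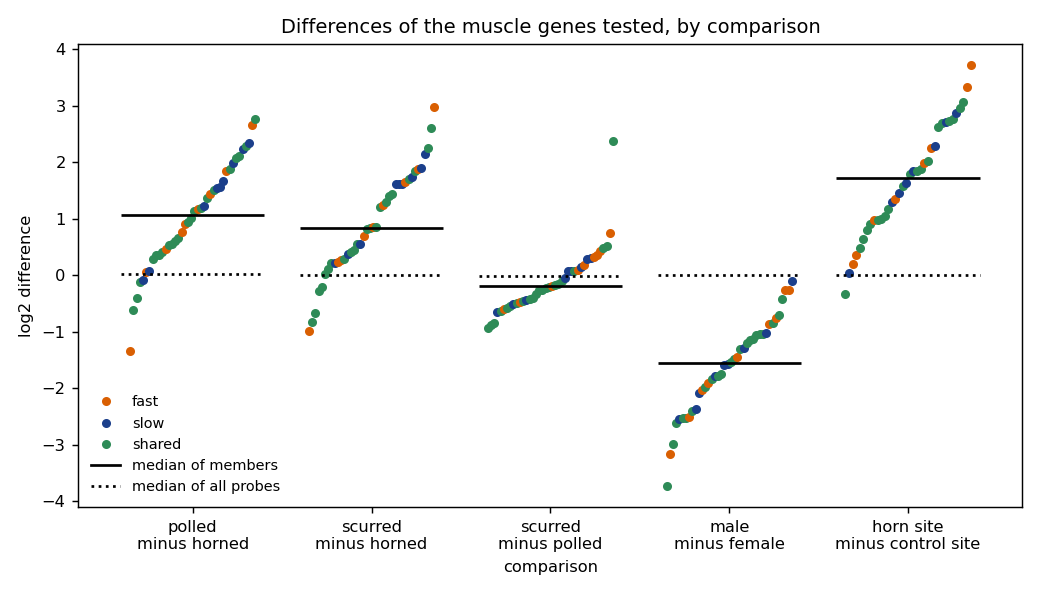
Points are the log2 differences of the members tested in each of the 5 comparisons, sorted from low to high and coloured by fibre kind; solid bars mark their median and dotted bars the median of all probes tested. All 40 points lie below 0 for male minus female, and 35 of 36 lie above 0 for horn site minus control site, although no member passed the test in any comparison.

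Sex gave the most uniform direction of the comparisons on chips 1 to 4. In male minus female, 40 of 40 members were lower in males, by a median of −1.55 against 0.00 over all probes, of which 49.4% were lower. Fibroblast and endothelial genes were also lower in males, in 5 of 5 each. Without chip 2, 5 members were higher in males, and without polled 2 there were 3. By limma 0 of 40 had an adjusted p under 0.05, beside 0.0195% of all probes. An unadjusted p under 0.05 was reached by 7 of 40, or 17.5%, beside 2.07% of all probes. Per biopsy, the median over members was above that of all 6 males in 4 of the 5 females, and the exception was polled 3 at −1.54. Fast, slow and shared genes each showed the same 4 of 5.

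TRDN had the lowest p of the sex comparison and was the 1 member of 40 whose levels did not overlap, beside 0.384% of all probes. The females had 10.85 to 13.74 and the males 8.48 to 10.56. The fitted difference was −1.76 (SE 0.54, limma p 0.0136, adjusted p 1). TTN had −1.49 (SE 0.59, limma adjusted p 1), RYR1 −1.13 (SE 0.45, limma adjusted p 1) and ACTA1 −2.98 (SE 1.22, limma adjusted p 1). Since members share the fibres they come from, the 40 directions are not 40 independent results.

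**Figure D5:**
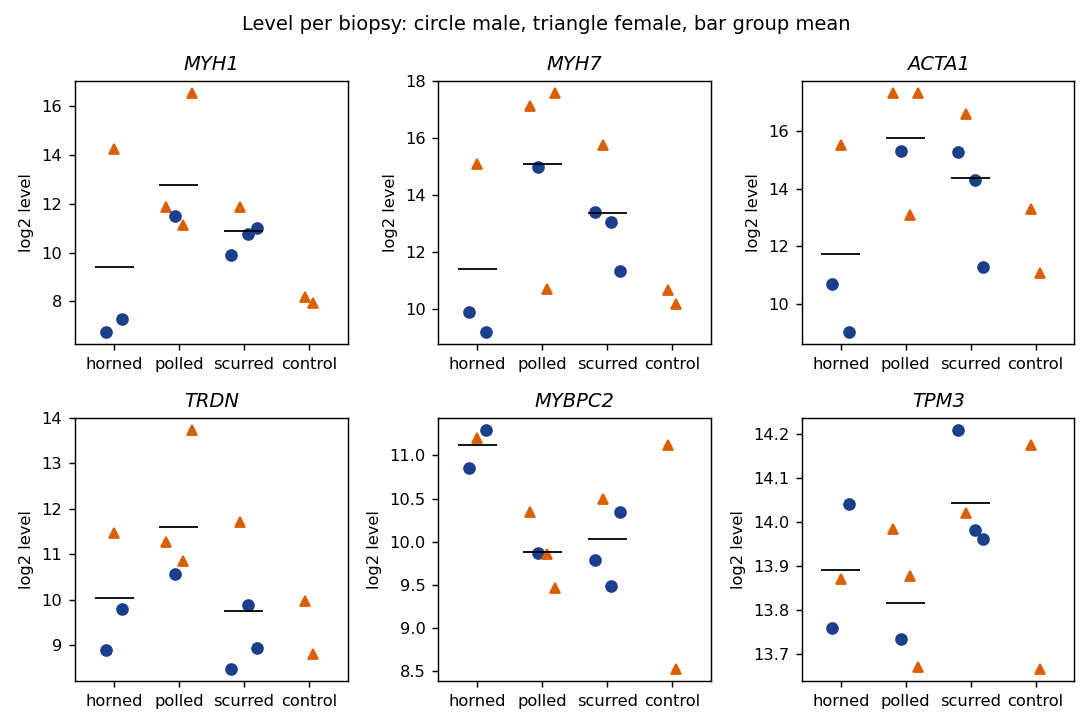
Points give the log2 level of 6 members in each biopsy by horn type and in the 2 control biopsies, with circles for males, triangles for females and bars for the mean of each horn type. MYH1, MYH7 and ACTA1 spread over most of their range within a horn type, TRDN is higher in all females than in all males at the horn site, MYBPC2 is higher in all 3 horned biopsies than in the other horn types, and TPM3 varies little.

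Horn-site and control skin of the same animal were compared in polled 3 and scurred 2, with both dye orders each. On the mean of both animals 35 of 36 members tested were higher at the horn site, by a median of 1.71 against −0.01 over all 14653 probes. By limma 0 of 36 had an adjusted p under 0.05 (0% of all probes), and 6 of 36, or 16.7%, an unadjusted p under 0.05, beside 4.68% of all probes. The 2 animals contributed unequally: over the 41 members the median was 2.85 in scurred 2 with 39 higher, and 0.17 in polled 3 with 29 higher. In scurred 2, MYL1 was higher by 6.25, ACTA1 by 5.71, MYH7 by 5.65 and MB by 4.95.

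In polled 3 few members parted between the sites. MYH1 was higher at the horn site by 2.85 in polled 3 and by 3.81 in scurred 2, which gave the lowest p (mean 3.33, SE 0.29, limma p 0.000843, adjusted p 0.969). MYL1 was higher by 1.18 and MB by 1.17 in polled 3, while slow MYH7 differed by 0.09, TNNC1 by −0.08 and MYL2 by −0.60. In the same animal ANKRD1 differed by −2.86, MYBPC2 by −1.18 and DES by −1.08, being lower at the horn site. MYOZ1 differed by 0.72 in polled 3 and 1.22 in scurred 2 (mean 0.97, SE 0.18, limma adjusted p 0.969), and TRDN by 0.89 and 2.85 (mean 1.87, SE 0.55, limma adjusted p 0.969). With polled 3 alone 24 of the 36 members were higher, by a median of 0.24.

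Other genes of muscle that are not among the 44 were also highest in polled 4 and lowest in horned 3. A list of 92 such genes covers further sarcomere proteins, channels and the nerve synapse, the dystrophin complex, energy metabolism, myogenic regulators and developmental isoforms; 86 had a probe and 70 were tested. Their median was 1.88 in polled 4, 0.90 in polled 1, −0.34 in horned 1 and −0.48 in horned 3, and 51 of the 70 were highest in polled 4. KLHL41, a protein that stabilises the thin filament, had the widest span at 8.35 log2 units, with 6.85, 12.49 and 7.64 in horned 1 to 3, 13.69, 11.85, 9.26 and 15.20 in polled 1 to 4, 11.47, 13.39, 10.98 and 8.33 in scurred 1 to 4, and 8.84 and 7.68 in the control skin of polled 3 and scurred 2. LMOD2, which lengthens thin filaments, spanned at least 6.22, COX6A2, a muscle subunit of cytochrome oxidase, at least 6.25, and ACTC1, the cardiac and fetal actin, 6.18. SLN, a brake on the calcium pump, was well above background in 8 of 11 biopsies and spanned 6.17. Polled 4 was the highest biopsy in KLHL41, LMOD2, COX6A2 and SLN, and scurred 1 in ACTC1.

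In the comparisons these 70 genes leaned the same way as the members, and none passed. By limma 0 of 70 had an adjusted p under 0.05 in each of the 4 comparisons of animals, and 3, 4, 1 and 5 had an unadjusted p under 0.05, or 4.29%, 5.71%, 1.43% and 7.14%, beside 9.36%, 3.75%, 5.97% and 2.07% of all probes. Polled minus horned had 54 of 70 higher with a median of 0.39, scurred minus horned 48 with 0.19, scurred minus polled 17 with −0.20 and male minus female 6 with −0.64. At the horn site against control skin 44 of 55 were higher, with a median of 0.27, 0 of 55 had an adjusted p under 0.05 by limma and 5 (9.09%) an unadjusted one, beside 4.68% of all probes. Of the 6 groups of this list the dystrophin complex varied least, with 0 of 8 genes spanning over 3 log2 units. It leaned the other way in polled minus horned (3 of 7 higher, median −0.27) and scurred minus horned (2 of 7 higher, median −0.47). In scurred minus polled, 5 of 7 developmental and cardiac isoforms (median 0.35) and 4 of 7 myogenic regulators (median 0.01) were higher.

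Markers of other cells in the biopsies ran in other orders. The median of 11 smooth muscle genes was 1.33 in horned 1 and 0.33 in polled 4, and their polled minus horned differences were lower in 11 of 11 with a median of −0.48. The median of the 6 adipocyte genes tested lay between −0.18 and 0.26 in every horn-site biopsy, although CIDEA alone spanned 5.22 and FABP4 4.59 log2 units. Keratinocyte genes were lowest in horned 3 at −1.78 and highest in scurred 1 at 2.47, and 7 of 7 were higher in polled than in horned skin with a median of 2.06, so muscle and epidermal genes leaned the same way in that comparison. The range of the keratinocyte median was −1.78 to −0.14 in horned, 0 to 1.27 in polled and −1.55 to 2.47 in scurred biopsies. The 5 dermal fibroblast genes were all lower in polled than in horned skin, with a median of −1.28, and the 2 red cell genes, HBB and ALAS2, were higher by 2.86 and 1.70. Of 5 endothelial genes 4 were lower, with a median of −0.27.

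The same lists leaned in the other comparisons as well. In scurred minus horned 7 of 7 keratinocyte genes were higher with a median of 1.88, HBB and ALAS2 were higher by 3.51 and 2.12, and 11 of 11 smooth muscle and 5 of 5 endothelial genes were lower, by medians of −0.69 and −0.18. In scurred minus polled 5 of 5 dermal fibroblast genes were higher with a median of 1.33, and 11 of 11 smooth muscle genes lower with a median of −0.27. In male minus female, where all 40 members were lower, so were 5 of 5 dermal fibroblast (median −0.58), 5 of 5 endothelial (−0.41), 6 of 7 keratinocyte (−0.45), 10 of 11 smooth muscle (−0.11) and 2 of 2 red cell genes (−0.83). At the horn site 5 of 5 dermal fibroblast and 5 of 5 endothelial genes were higher than in control skin, by medians of 0.19 and 0.36, and 11 of 11 smooth muscle genes lower, by −0.37. By limma 0 genes of these 6 lists had an adjusted p under 0.05 in any of the 5 comparisons. An unadjusted limma p under 0.05 was reached by at most 3 genes of a list, but the lists are short. It was reached by 2 of 2 red cell genes in scurred minus horned, beside 3.75% of all probes. The same held for 2 of 5 dermal fibroblast genes in scurred minus polled (5.97% of all probes). At the horn site it held for 3 of 11 smooth muscle genes (4.68% of all probes), and in male minus female for 0 genes. The part of these lists in the muscle differences was not tested.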

How the data were processed

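Biopsy RNA was labelled with Cy3 or Cy5, and 20 arrays were read with Agilent Feature Extraction 9.5.1, per the submitters' processing notes. The deposited scanner files give, per dye, a linear mean intensity and background intensity of each spot, and processed intensities. The deposited log ratio is on the log10 scale, red over green, and also fills the series table, with the sign turned in 6 columns. Probe sequences are those of the scanner files. Here limma 3.58.1 (R 4.3.3) applied normexp with an offset of 50 to the mean intensities and then loess per array. Spots marked as outliers were left out and duplicate spots averaged. The offset narrows differences of dim probes. Each biopsy's level is the mean of its red and green means after Aquantile. For differences, arrays of chips 1 to 4 were reduced to animal differences with a dye coefficient and fitted by limma on generalized least squares with horn type and sex, 5 residual degrees of freedom, and Benjamini-Hochberg adjustment over all probes (threshold 0.05). The chip is the replicate number of the labels and acts as a block. Polled and scurred animals of the same number did not deviate together on all 4 chips (r 0.238, 0.293, 0.409 and −0.0781 over 15376 probes). Site differences averaged both dye orders per animal and were tested against 0. A probe counted as well above background in a biopsy when over 50% of that biopsy's spots were. The filter was at least 3 of 11 animals, or 2 of 4 biopsies on chip 5. The fit was tested on simulated data. Values in every biopsy are given for the isoform pairs, for ACTA1, CKM, MB, TTN, TCAP, RYR1 and PYGM, and for up to 3 members of lowest p per comparison; of the other muscle genes the 5 of widest span are named. Other genes were matched by the array's symbols and descriptions or by RefSeq's table of assembly ARS-UCD2.0, used for names only; 2 probes that the table gives to another gene (as FBP1 and TSTD2) were left out. A probe named MRLC2 and described as a muscle light chain belongs to MYL12A by its accession and was not used. The members and lists were chosen with earlier results of these data known. Alternatives covered background correction, normalization, the deposited log ratios, filters, probes per gene, flags, the sex term, the block, and leaving out chips, animals or 6 broadly expressed members.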

Additional observations from a re-analysis of the deposited data

Results flagged for a closer look

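The levels of 2 genes lay far from the other 3 biopsies of their horn type, among 54 sets of 4 biopsies looked at (23 named genes and 4 medians in polled and in scurred animals); chance gives about 1 in 20. MYH1 stood at 16.53 in polled 4, against 11.87 in the next polled biopsy. RYR1 stood at 8.59 in scurred 2, against 7.12 in the next scurred biopsy. Groups of 3 were not looked at.

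For 8 of the 23 named genes looked at, the horn site was above the control site in scurred 2 and below it in polled 3. In scurred 2 the differences were 6.03 for ANKRD1, 5.71 for ACTA1, 3.88 for MYL2, 2.97 for TNNC1, 1.87 for MYBPC2, 1.65 for TCAP, 1.48 for PYGM and 0.33 for TPM3. In polled 3 they were −2.86, −0.25, −0.60, −0.08, −1.18, −0.05, −0.20 and −0.28 in the same order. Outside the 23 genes, DES (2.06 in scurred 2 and −1.08 in polled 3), MYOZ2 (5.46 and −0.05) and ACTN3 (0.46 and −0.08) did so too. With 1 animal of each horn type the difference between the animals was not tested.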

How the results depend on the processing

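No member was called under any setting in which a test was run; the site comparison with 1 animal has none. Over the settings that change the processing, the median of the members ran from 0.97 to 1.53 for polled minus horned, from 0.65 to 1.46 for scurred minus horned, from −0.96 to −0.12 for scurred minus polled, from −2.07 to −1.47 for male minus female and from 1.45 to 1.97 for horn site minus control site. With no replicate block the medians were 1.19, 1.13, −0.17 and −2.07 for the comparisons of animals. With a chip or an animal left out they ran from 0.49 to 1.65, 0.18 to 1.57, −0.83 to 0.73 and −2.17 to −1.17, and with 1 animal left for the site comparison from 0.24 to 3.19. Leaving out chip 2 gave the 0.49 and the 0.73, and leaving out chip 1 the 0.18. Scurred minus polled was also above 0 without chip 4 (0.35), polled 4 (0.11), scurred 2 (0.23) or scurred 4 (0.11). Without the sex term 4 of 40 members were higher in scurred than in polled skin, in place of 15. Members higher in males numbered 5 without chip 2, 3 without polled 2, and 1 with median centring or with no filter. The span of the biopsy medians, 6.26, ran from 5.93 to 7.29. The slow minus fast medians without the troponin T pair or the MYL pair were chosen after the data were seen. Probes near background give only bounds, and 11 animals limit the precision.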

Other observations

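Genes of developing muscle had an order of their own. Of the developmental and cardiac isoforms and myogenic regulators, ACTC1 (cardiac and fetal actin), MYL4 (an embryonic and atrial light chain), TNNT2 (cardiac and fetal troponin T) and MYOG (myogenin) were highest in scurred 1, and so was CHRNG, the fetal subunit of the acetylcholine receptor; these were chosen after their values were seen. MYOG read 11.60 in scurred 1, 11.25 in polled 4 and 11.15 in polled 1, and CHRNG 10.39 in scurred 1 and 9.44 in scurred 2. MYL4 stood at 11.49 in scurred 1 and at 10.35 in polled 4. The members had a median of 0 in scurred 1 and of 3.85 in polled 4. In scurred 1 the fast gene MYLPF was the second highest of the 11 horn-site biopsies, at 12.49. MYH3, the embryonic myosin heavy chain, was 14.51 in polled 4, 14.25 in polled 1, 14.24 in scurred 1 and 13.49 in horned 2, and 9.64 in horned 3. PAX7 and MYF5, which mark muscle stem cells, were well above background in 0 of 11 horn-site biopsies.

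Within the 5 horn-site biopsies of females the members ran from a median of −1.54 in polled 3 to 3.85 in polled 4, while the 6 males lay between −2.41 and 0.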
